A study of Rattus norvegicus with 24 samples.

Results

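The genes described here encode proteins of the Z-disc, the plate that bounds each sarcomere of striated muscle, and were chosen by name: the sarcomeric alpha-actinins Actn2 and Actn3, the myozenins Myoz1, Myoz2 and Myoz3, and the partner proteins Tcap, Ldb3 and Myot. Of these 8 genes, 7 had values, carried by 14 annotated transcripts. The table held 15273 gene symbols, of which 11196 were tested, among them all 7 genes with values. Tcap, which encodes telethonin, had no row under its symbol and is given no value. RNA was sequenced from the tibialis anterior, the main dorsiflexor of the ankle, of 12 adult male Wistar rats. Training lasted 2, 10, 20 or 30 days and followed a resistance protocol named SpillOver. Once a day, a pulse generator implanted in the rat drove the left dorsiflexors, which shorten or lengthen against co-activated plantarflexors. Each duration had 3 rats, and each rat gave 2 muscles soon after its last session: the trained left muscle and the unstimulated right, contralateral muscle. The contralateral muscles thus came from implanted and trained animals, and no rat without an implant was part of the comparison.

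Alpha-actinin dimers cross-link the actin filaments of neighbouring sarcomeres at the Z-disc. Actn2 is made in all striated fibres, whereas Actn3 is restricted to fast glycolytic fibres of skeletal muscle. Myozenins bind alpha-actinin, filamin C and the phosphatase calcineurin, with Myoz1 and Myoz3 typical of fast fibres and Myoz2 of slow fibres and heart, and Ldb3 and myotilin (Myot) are further alpha-actinin-binding proteins whose mutation causes myofibrillar myopathy.

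The deposited values were read as transcripts-per-million-type values: the authors' methods name median-of-ratios normalisation, but the values had the same total in each library and followed transcript length, and all levels compared between genes rest on this reading. Such values carry no sequencing depth, so no counting precision could be computed from them. Each library was divided here by a median-of-ratios factor, transcripts were summed per gene symbol, and each trained group of 3 was compared with the 12 contralateral muscles by limma on log2(value + 1). Adding 1 makes the log2 differences of genes with low values too small. The p-values measure the spread between muscles of different animals within the groups. This fit does not use the pairing of the 2 muscles of each rat. A gene was called at a Benjamini-Hochberg adjusted p under 0.05. The 4 comparisons share the same 12 controls. The scaling moved the balance of higher and lower calls at each time point, least at 20 days: with the values as deposited, the median log2 difference over all genes tested was 0.07, 0.07, -0.03 and -0.18 at 2, 10, 20 and 30 days, against -0.01, -0.03, -0.03 and -0.01 after rescaling. Of the genes called, 53.4%, 53.9%, 54.9% and 54.0% were higher in trained muscle at the 4 time points, and with the values as deposited these shares were 74.5%, 75.5%, 61.0% and 20.0%. Among genes with a mean of at least 10 they were 41.8%, 36.2%, 37.6% and 45.4%. As deposited, 2132, 2096, 1163 and 647 of 11262 genes were called higher and 731, 682, 745 and 2590 lower. A further fit, with the animal as a replicate block, set trained muscle against the same rats' contralateral muscles. It called 1320, 1356, 1113 and 807 of 11196 genes higher and 1097, 896, 831 and 570 lower. List counts for these settings are to be read beside these numbers.

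In mitochondrial share, a single library stood apart from its group. In this library, replicate 1 of the contralateral 30-day muscles, transcripts of the mitochondrial genome made up 44.2% of the total. Replicates 2 and 3 had 35.0% and 30.1%. The trained 30-day libraries had 40.4%, 43.6% and 44.6%, the trained 2-day libraries 25.3% to 28.8%, the trained 10-day libraries 23.7% to 27.7% and the trained 20-day libraries 31.5% to 36.0%. No call of any of the 7 genes changed when that contralateral library was left out. The part of the shares of the trained groups in the results was not tested. Skeletal muscle markers were high in every library: the summed value of Ckm, Acta1, Mb, Tnnt3, Mylpf, Pygm and Eno3 was 71688 to 87016 in the contralateral muscles, Acta1 was the most abundant and none was at 0. Trained 20-day replicate 3 had the lowest sum of all libraries, 58420, against 92512 and 87095 in replicates 1 and 2. It also had the lowest values of its group for Actn2, Actn3, Myoz1 and Myoz3. Without it the 20-day call of Myoz3 was lost.

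In contralateral muscle, Actn3 and Myoz1 were the most abundant of these genes per transcript length, ranking 27 and 34 by mean level among the 11196 genes tested. Ldb3 followed at rank 54, Myot at 71, Actn2 at 85, Myoz2 at 463 and Myoz3 at 935. The ranges over the 12 muscles did not overlap between Actn3 and Myoz1, between Myoz1 and Ldb3, or between Actn2 and Myoz2. Those of Ldb3 and Myot, of Myot and Actn2, and of Myoz2 and Myoz3 did overlap. Among the 4 contralateral groups, 0 of the 7 genes differed by a limma F test, beside 0.0625% of all genes tested and with 1197 genes at an unadjusted p under 0.05. Of the 7 genes only Ldb3 had an unadjusted p under that value (0.0159, adjusted p = 0.389).

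Of the 7 genes, 1 was called higher and 3 lower after 2 days of training, beside 15.4% and 13.5% of all genes tested. After 10 days 1 was higher and 2 were lower (all genes: 15.6% and 13.3%), after 20 days 1 and 3 (all genes: 11.7% and 9.64%), and after 30 days 1 and 1 (all genes: 11.1% and 9.46%). The gene called higher was Actn2 at each time point. Actn3 was called lower at each time point, Myoz1 at 2 and 10 days, Myoz3 at 2 and 20 days and Myot at 20 days, while Myoz2 and Ldb3 were called at none. The median log2 difference of the 7 genes was -0.34, -0.23, -0.25 and -0.10 at 2, 10, 20 and 30 days. It was -0.23, -0.11, -0.26 and -0.32 on the values as deposited and -0.40, -0.15, -0.24 and -0.27 with the animal as a replicate block. In neither of these was the 30-day median the one nearest to 0. The counts of lower calls were 2, 1, 2 and 1 with the animal as a replicate block (all genes: 1097, 896, 831 and 570 of 11196). Of the 11262 genes tested as deposited, 731, 682, 745 and 2590 were called lower and 2132, 2096, 1163 and 647 higher. Among them, 2, 2, 3 and 3 of the 7 genes were called lower and 1, 2, 1 and 1 higher. In bulk tissue, fewer cells or fibres of a type and less RNA per cell cannot be told apart, and this holds for each of these genes.

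**Figure D1:**
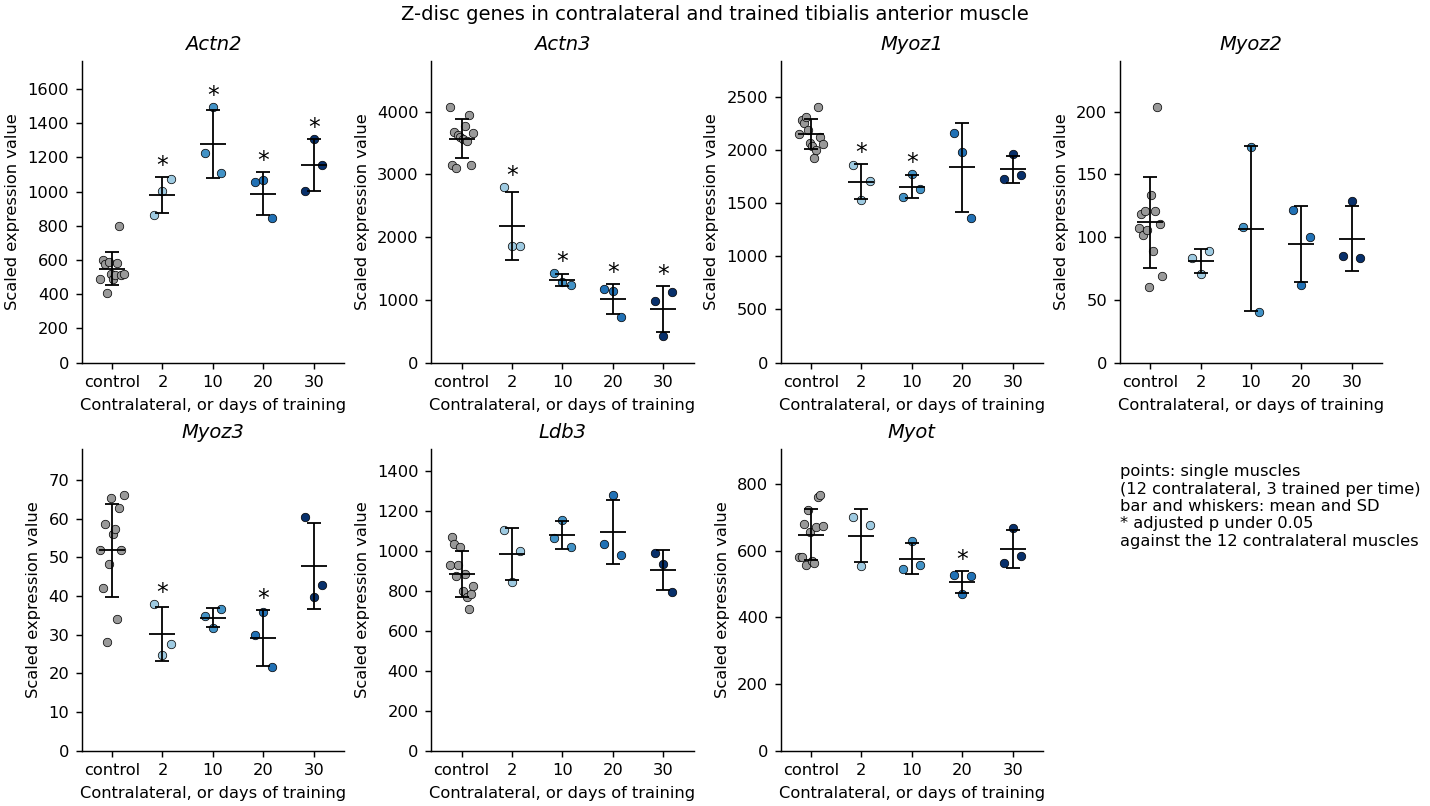
Scaled expression value (vertical axis, from 0) of 7 Z-disc genes in the 12 contralateral muscles and in the 3 trained muscles after 2, 10, 20 and 30 days (horizontal axis); each point is 1 muscle, the bar is the mean, the whiskers are the SD, and a star marks an adjusted p under 0.05. All trained muscles lie above the contralateral range of 405 to 797 for Actn2 and below that of 3099 to 4071 for Actn3.

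Actn2, the alpha-actinin found in all striated fibres, was higher in trained muscle throughout. The 12 contralateral muscles had values of 405 to 797 with a median of 519.9. The trained muscles had 864, 1001 and 1075 after 2 days and 1228, 1495 and 1108 after 10 days. After 20 days the values were 1057, 1065 and 844, and after 30 days 1004, 1310.4 and 1154. Every trained muscle exceeded every contralateral muscle, although the highest contralateral value, in the 30-day library with the high mitochondrial share, lay close to the lowest trained values. The mean was 549.5 ± 95.4 in contralateral muscle (SD, n = 12), and the log2 difference was 0.85, 1.22, 0.86 and 1.08 at 2, 10, 20 and 30 days (SE 0.14). The adjusted p was 5.8e-05, 3.8e-07, 7.2e-05 and 5.3e-06. Actn2 was higher than in the rat's own contralateral muscle in 3 of 3 rats at each time point, by 0.33 to 1.60 on the log2 scale. Without the contralateral library that stood apart, the log2 differences were 0.90, 1.27, 0.91 and 1.13.

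Actn3, the alpha-actinin of fast glycolytic fibres, was lower in trained muscle throughout. The contralateral muscles had values of 3099 to 4071 with a median of 3616. After 2 days the trained muscles had 2795, 1859 and 1858, and after 10 days 1428, 1279 and 1245. After 20 days they had 1177, 1135 and 732, and after 30 days 986, 431 and 1132. The groups did not overlap: the highest trained value, in replicate 1 after 2 days, was below the lowest contralateral value, and the lowest of all was replicate 2 after 30 days. From a contralateral mean of 3569 ± 305 (SD, n = 12), the log2 difference was -0.74, -1.44, -1.84 and -2.18 at 2, 10, 20 and 30 days (SE 0.19), or 1.67-, 2.71-, 3.58- and 4.53-fold lower. The adjusted p was 0.00453, 3.1e-06, 1.4e-07 and 1.6e-08. It was lower than in the own contralateral muscle in 3 of 3 rats at each time point. The 2-day call was made in 31 of 32 alternatives (24 fits without 1 library and 8 other settings) and missed in 1: without trained replicate 2 the log2 difference was -0.64 and the adjusted p 0.0610, the highest of a range that began at 1.5e-04. Without replicate 3, whose value was nearly the same, the log2 difference was -0.64 and the call was kept. Without the contralateral library that stood apart, the log2 differences were -0.73, -1.42, -1.83 and -2.17.

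**Figure D2:**
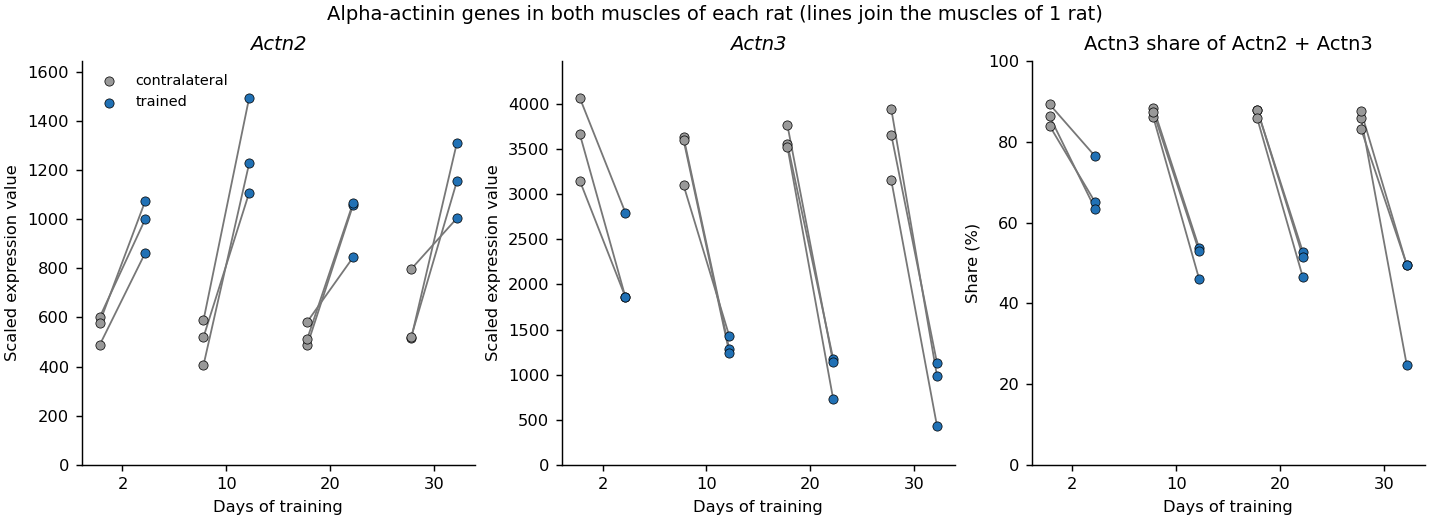
Scaled expression value of Actn2 and Actn3, and the share of Actn3 in their sum (%), in the contralateral (grey) and trained (blue) muscle of each rat after 2, 10, 20 and 30 days of training (horizontal axis); each point is 1 muscle and each line joins the muscles of 1 rat. Actn2 is higher and Actn3 lower in the trained muscle of all 12 rats, and the share falls from a contralateral mean of 86.7% to 41.3% after 30 days.

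The balance between the sarcomeric alpha-actinins can be read within each library, since both values are read as per transcript length and their ratio does not depend on the scaling of the library. Actn3 made up 83.2% to 89.3% of the sum of Actn2 and Actn3 in the 12 contralateral muscles, with a median of 86.9%. In trained muscle the share was 76.4, 65.0 and 63.3% after 2 days and 53.8, 46.1 and 52.9% after 10 days. It was 52.7, 51.6 and 46.4% after 20 days and 49.6, 24.8 and 49.5% after 30 days. No trained muscle reached the contralateral range, and replicate 2 after 30 days was lower than any other muscle. The mean share was 86.7 ± 1.80% in contralateral muscle (SD, n = 12) and 68.2 ± 7.11%, 50.9 ± 4.20%, 50.2 ± 3.34% and 41.3 ± 14.3% in the trained groups (SD, n = 3 each), given as a description without a test. Without replicate 2 the mean after 30 days was 49.5%. The sum of the 2 genes was 4119 ± 351 in contralateral muscle (SD, n = 12) and 3151 ± 442, 2594 ± 217, 2004 ± 371 and 2006 ± 273 in the trained groups (SD, n = 3 each), so the gain of Actn2 was smaller than the loss of Actn3 in these units.

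The non-muscle alpha-actinins, which bundle actin at stress fibres and adhesions, had far lower values than the sarcomeric ones. Actn1, with a contralateral mean of 2.97, and Actn4, with 11.2, were both tested, and 1, 2, 1 and 0 of them were called higher at 2, 10, 20 and 30 days, with none lower. Of all genes, 15.4%, 15.6%, 11.7% and 11.1% were called higher and 13.5%, 13.3%, 9.64% and 9.46% lower. Actn4 lay between 9.61 and 13.4 in contralateral muscle and between 14.7 and 19.3 after 10 days, without overlap. Actn1, named after its values were seen, had a mean of 6.38 after 2 days (log2 difference 0.89, adjusted p = 1.5e-04) and 6.43 after 10 days (log2 difference 0.92, adjusted p = 9.3e-05). The log2 difference of Actn4 was 0.52 at 10 days (adjusted p = 0.00212). At 20 days it was 0.43 (adjusted p = 0.0114), with an adjusted p of 0.0516 on the values as deposited and 0.149 without trained replicate 2, the ends of a range over 32 alternatives being 0.00606 and 0.149. On the values as deposited 0 of the 2 genes were called at 20 days.

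Myoz1 (calsarcin-2), the fast-fibre myozenin that binds calcineurin and alpha-actinin, was lower after 2 and 10 days. Contralateral values were 1924 to 2401 with a median of 2137. The trained muscles had 1857, 1529 and 1707 after 2 days and 1559, 1773 and 1627 after 10 days, all below the contralateral range. After 20 days they had 2161, 1980.0 and 1362, and after 30 days 1723, 1961 and 1764. At these later times the groups overlapped, since 1 of 3 muscles after 20 days and 2 of 3 after 30 days lay under the contralateral range. From a contralateral mean of 2148 ± 142 (SD, n = 12), the log2 difference was -0.34 at 2 days (adjusted p = 0.0157) and -0.38 at 10 days (adjusted p = 0.00779). It was -0.25 at 20 days (adjusted p = 0.0868) and -0.24 at 30 days (adjusted p = 0.103).

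Both Myoz1 calls were close to the threshold. The adjusted p with the animal as a replicate block was 0.0576 at 2 days and 0.0563 at 10 days, with log2 differences of -0.40 and -0.40. Over 32 alternatives the adjusted p ran from 0.00280 to 0.161 at 2 days and from 0.00111 to 0.0625 at 10 days. The 2-day call was lost without trained replicate 2 (adjusted p = 0.161) or replicate 3 (0.0558), and on the values as deposited (0.0689). The 10-day call was lost without trained replicate 1 (0.0625). In the other direction, the 20-day difference was called without trained 20-day replicate 1 (log2 -0.38, adjusted p = 0.0229). Without replicate 3 it was -0.05 (adjusted p = 0.763), in the blocked fit -0.14 (adjusted p = 0.530), and 2 of 3 rats had a higher value than in their own contralateral muscle. The 30-day difference was called on the values as deposited (-0.47, adjusted p = 6.3e-04) and without trained 20-day replicate 3 (adjusted p = 0.0362).

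Myoz2 (calsarcin-1), the myozenin of slow fibres and heart, was not called at any time point. Contralateral values were 60.0 to 204 with a median of 109, the highest being again the 30-day library with the high mitochondrial share. The trained muscles ranged from 70.3 to 89.0 after 2 days, 40.6 to 172 after 10 days, 61.8 to 121 after 20 days and 83.3 to 129 after 30 days. The log2 differences of -0.40, -0.23, -0.23 and -0.14 had an SE of 0.31, so a change of that size was within the spread between animals (adjusted p from 0.339 to 0.791). Against the own contralateral muscle, Myoz2 was lower in 3 of 3 rats at 2 and 20 days, while at 10 and 30 days the rats went both ways. The blocked log2 difference was -0.43 at 2 days (adjusted p = 0.283) and -0.31 at 20 days (adjusted p = 0.469). Leaving out 1 library moved the 10-day difference to between -0.68 and 0.35 and the 20-day difference to between -0.44 and 0.04. The blocked 10-day value was -0.01.

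Myoz3 (calsarcin-3), the least abundant member and a fast-fibre protein, was lower after 2 and 20 days. Contralateral values were 28.0 to 66.0 with a median of 53.9. The trained muscles had 38.0, 24.8 and 27.5 after 2 days and 34.9, 31.7 and 36.6 after 10 days. After 20 days they had 30.0, 35.8 and 21.6, and after 30 days 60.4, 39.8 and 42.8. Each trained group overlapped the contralateral muscles, 2 of which, replicate 1 at 10 days and replicate 3 at 20 days, were as low as trained muscle. The log2 difference from a contralateral mean of 51.8 ± 12 (SD, n = 12) was -0.75 at 2 days (adjusted p = 0.00795) and -0.80 at 20 days (adjusted p = 0.00619). At 10 days it was -0.54 (adjusted p = 0.0505) and at 30 days -0.10 (adjusted p = 0.779). Against the own contralateral muscle, Myoz3 was lower in 3 of 3 rats at 30 days, and the blocked log2 difference was -0.35 (adjusted p = 0.267).

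Over 32 alternatives the adjusted p of Myoz3 ran from 0.00107 to 0.0959 at 2 days and from 8.1e-04 to 0.0802 at 20 days. The 2-day call was lost without trained replicate 2 (0.0959) or replicate 3 (0.0505). The 20-day call was lost without trained replicate 3 (0.0802) and against the 3 contralateral muscles of the same time point (0.0667). At 10 days the difference was called in 9 of 32 alternatives, with adjusted p between 0.0106 and 0.370. Leaving out contralateral 10-day replicate 1 (0.0106) or contralateral 20-day replicate 3 (0.0273) lowered it most. It was also called without contralateral 2-day replicate 2 (0.0449), trained 2-day replicate 1 (0.0461), trained 20-day replicate 2 (0.0483) or 3 (0.0448), and trained 30-day replicate 1 (0.0471).

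Within the myozenins, Myoz1 made up most of the summed value in every muscle: 90.0% to 94.3% in the 12 contralateral muscles. The mean was 93.0 ± 1.16% there (SD, n = 12) and 93.9 ± 0.263%, 92.3 ± 2.94%, 93.5 ± 1.75% and 92.6 ± 0.676% in the trained groups (SD, n = 3 each). Myoz2 made up 4.79 ± 1.27% and Myoz3 2.26 ± 0.563% in contralateral muscle. Of the 12 trained muscles 9 lay within the contralateral range, while 10-day replicate 2 was below it at 89.7% and 10-day replicate 3 and 20-day replicate 2 were above it at 95.5% and 95.3%.

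Ldb3 (ZASP or Cypher), a PDZ- and LIM-domain protein that ties alpha-actinin to the Z-disc, was not called at any time point. Contralateral values were 709 to 1069.5 with a median of 878, with group means of 1010.5, 939, 817 and 772 at 2, 10, 20 and 30 days. The trained muscles had 1106, 846 and 1000.2 after 2 days, 1063, 1155 and 1020.0 after 10 days, 1032, 1278 and 977 after 20 days and 988, 931 and 792 after 30 days. In the first 3 trained groups 1 of 3 muscles was above all contralateral ones, and after 30 days none was. The log2 difference was 0.16, 0.30, 0.31 and 0.04 (SE 0.12), with adjusted p of 0.341, 0.0629, 0.0650 and 0.869. Over 32 alternatives the 10-day difference was called in 5 (adjusted p 0.0373 to 0.333) and the 20-day difference in 4 (0.0328 to 0.376). The libraries whose omission gave a call were contralateral 2-day replicate 2 (0.0373 at 10 days, 0.0373 at 20 days), contralateral 2-day replicate 3 (0.0471 and 0.0494) and, at 10 days, contralateral 10-day replicate 3 (0.0492). Against the contralateral muscles of the same time point the 20-day log2 difference was 0.42 (adjusted p = 0.0328), and on the values as deposited the 10-day difference was 0.42 (adjusted p = 0.0423). Among genes with a mean of at least 10 both differences were called, with adjusted p of 0.0463 and 0.0471. With the animal as a replicate block the log2 differences were -0.04, 0.20, 0.42 and 0.22 (adjusted p = 0.851, 0.333, 0.0520 and 0.326), so that the 2-day direction was not the same.

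Myot (myotilin), which binds alpha-actinin and filamin C and bundles actin, was lower after 20 days. Contralateral values were 556 to 766 with a median of 662. The trained muscles had 702, 554 and 678 after 2 days and 544, 628 and 556 after 10 days. After 20 days they had 526, 469 and 523, and after 30 days 563, 668 and 582. All 3 muscles of the 20-day group were below the contralateral range, whereas the other trained groups overlapped it. The 20-day log2 difference was -0.35 from a mean of 648 ± 77.0 (SD, n = 12; adjusted p = 0.0215). In the blocked fit it was -0.24 with an adjusted p of 0.160, within a range of 0.0135 to 0.219 over 32 alternatives. The call was also lost against the 3 contralateral muscles of the same time point (adjusted p = 0.219) and without trained replicate 2 (0.127). The log2 difference was -0.00 at 2 days (0.11 on the values as deposited), -0.16 at 10 days and -0.09 at 30 days, the last of which was called on the values as deposited (-0.32, adjusted p = 0.0362). At 30 days Myot was lower than in the own contralateral muscle in 3 of 3 rats, by log2 differences of -0.43 to -0.20, and the blocked value was -0.28 (adjusted p = 0.128).

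The trained groups were also compared with each other. Between 2 and 10 days, 0 of the 7 genes were called (all genes: 1.93%). The same count was found between 10 and 20 days (all genes: 0.170%) and between 20 and 30 days (all genes: 0.0357%), by limma in each case. At an unadjusted p under 0.05 the counts were 2, 1 and 1 of 7, beside 1669, 1050 and 763 of the 11196 genes tested. Between 2 and 30 days that count was 2 of 7, beside 3324 of all genes. Between 2 and 30 days, 1 of the 7 genes was called (all genes: 15.0%). This gene was Actn3, which was lower after 30 days than after 2 days by a log2 difference of -1.44 (SE 0.24, adjusted p = 3.1e-04), with all 3 muscles of the later group below the earlier ones. In the blocked fit, the change from 2 to 30 days in the difference from the own contralateral muscle was -1.43 (adjusted p = 0.0199). This contrast also holds any change between the contralateral muscles. Its steps between neighbouring time points were -0.70, -0.41 and -0.34, none past the threshold. Over 8 alternatives the step from 10 to 20 days ran from -0.53 to -0.19. The step from 20 to 30 days ran from -0.60 to 0.09, so its direction was not the same in all of them. For Actn2 the log2 difference between 30 and 2 days was 0.24 (adjusted p = 0.397), and -0.10 on the values as deposited (adjusted p = 0.620). For Myoz3 it was 0.65 (adjusted p = 0.0942), with an adjusted p of 0.0457 without trained 2-day replicate 1. For Myoz3 the blocked contrast was 0.40 (adjusted p = 0.454), and the difference between trained groups as deposited was 0.32 (adjusted p = 0.420). For Myot it was -0.09 (adjusted p = 0.709), and -0.43 on the values as deposited (adjusted p = 0.0265).

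The 14 transcripts behind these 7 genes lay on 6 chromosomes of the rn6 assembly (Rnor_6.0). Actn2 was represented by a single protein-coding transcript on chr17:66304501-66397654 (minus strand), and Actn3 by 1 on chr1:220120533-220136471 (minus strand). Myoz2 and Myoz3 also had 1 transcript each, on chr2:227180886-227207636 and chr18:55843164-55859334 (both minus strand). Myoz1 had 2, of which Myoz1-201 (chr15:4077091-4084306, plus strand) gave 95.1% of the contralateral mean and Myoz1-202 4.89%. Ldb3 had 5, and Ldb3-201, which covers the shorter span chr16:10915398-10941419 (minus strand), gave 72.3%. The other 4 reach down to about chr16:10878334, and of these Ldb3-204 gave 14.9%, Ldb3-202 7.23% and Ldb3-203 5.46%. Myot had 3, Myot-203 with 71.1%, Myot-201 with 26.4% and Myot-204, annotated as a retained intron, with 2.48%.

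All 14 transcripts were tested and 13 of them had a mean of at least 10 over the 24 libraries. After 2 days 2 were called higher and 3 lower (all transcripts, either direction: 22.9%), after 10 days 3 and 2 (22.8%), after 20 days 3 and 3 (16.6%) and after 30 days 1 and 1 (16.0%). Most of these calls were those of the genes, made by their main transcript. Ldb3 was the exception: Ldb3-202, a long form with a contralateral mean of 63.9, had a log2 difference of 0.37 at 10 days (mean 83.2, adjusted p = 0.0121). At 20 days it was 0.38 (mean 83.1, adjusted p = 0.0146). In the blocked fit the adjusted p of Ldb3-202 was 0.0751 and 0.0714. The scarce Ldb3-205, singled out after its values were seen, rose from a contralateral mean of 0.900 to 3.33 at 2 days (log2 1.16, adjusted p = 6.8e-04) and 2.91 at 10 days (log2 1.03, adjusted p = 0.00188), the latter with an adjusted p of 0.0592 in the blocked fit. Its 20-day value was 1.97 (adjusted p = 0.0490, and 0.158 in the blocked fit). The dominant short form Ldb3-201 was not called, with log2 differences of 0.16, 0.28, 0.34 and 0.00 at the 4 time points. Its share of Ldb3 was 72.1 ± 2.07% in contralateral muscle (SD, n = 12) and lay between 70.4% and 73.7% on average in the trained groups. In Myot, the 20-day call belonged to Myot-203 (log2 -0.39, adjusted p = 0.0256), which had an adjusted p of 0.142 in the blocked fit. In Myoz1 the calls belonged to Myoz1-201, with adjusted p of 0.0160 at 2 days and 0.00891 at 10 days, and 0.0805 and 0.0799 in the blocked fit.

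The members sit among many other Z-disc proteins, and a list of 30 symbols for these, fixed by name, had 26 genes that were tested. More of them were called higher than lower at each time point, with the exception of 30 days on the values as deposited: 15 were called higher and 0 lower after 2 days (all genes: 15.4% and 13.5%), 15 and 2 after 10 days (15.6% and 13.3%), 10 and 6 after 20 days (11.7% and 9.64%) and 10 and 4 after 30 days (11.1% and 9.46%). The list's median log2 difference was 0.60, 0.59, 0.19 and 0.33, beside medians near 0 for all genes tested. On the values as deposited the 30-day count was 7 higher and 8 lower with a median of 0.12, and with the animal as a replicate block 8 and 2 with a median of 0.19. Xirp1, an actin-binding protein of cell junctions and damaged Z-discs, rose from a contralateral range of 31.3 to 77.8 to 844 to 889 after 2 days and was still between 249.6 and 474 after 30 days. Its log2 difference was 4.30 at 2 days (adjusted p = 6.0e-13) and 2.94 at 30 days (adjusted p = 1.5e-09). Csrp3, the muscle LIM protein that binds alpha-actinin and Tcap, rose by 4.04, 4.04, 2.92 and 2.65 on the log2 scale at the 4 time points, from 109.9 ± 34.0 (SD, n = 12). The 3 muscles of its 2-day group ranged widely, from 632 to 3437.

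Cryab, the small heat shock protein that protects desmin and Z-disc proteins, rose by 2.98 at 2 days (adjusted p = 6.8e-10) and by 1.22 at 30 days (adjusted p = 3.9e-04). Ankrd2, a stretch-responsive ankyrin repeat protein of the I-band, rose from a contralateral mean of 14.8 ± 3.64 (SD, n = 12) by 3.32 at 2 days (adjusted p = 2.4e-07) and 1.94 at 10 days (adjusted p = 2.3e-04). At 20 and 30 days its log2 difference was 0.11 and -0.32, neither past the threshold. Ttn and Palld, which were on the list, had no row, and Nebl did not reach the value needed for testing. Murc, an older symbol of Cavin4, also had no row, but that gene was tested as Cavin4, which the list held too. Of the 7 genes first described, Actn2 rose and no other was called higher at any time point, apart from Ldb3 at 10 or 20 days in the alternatives already given.

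**Figure D3:**
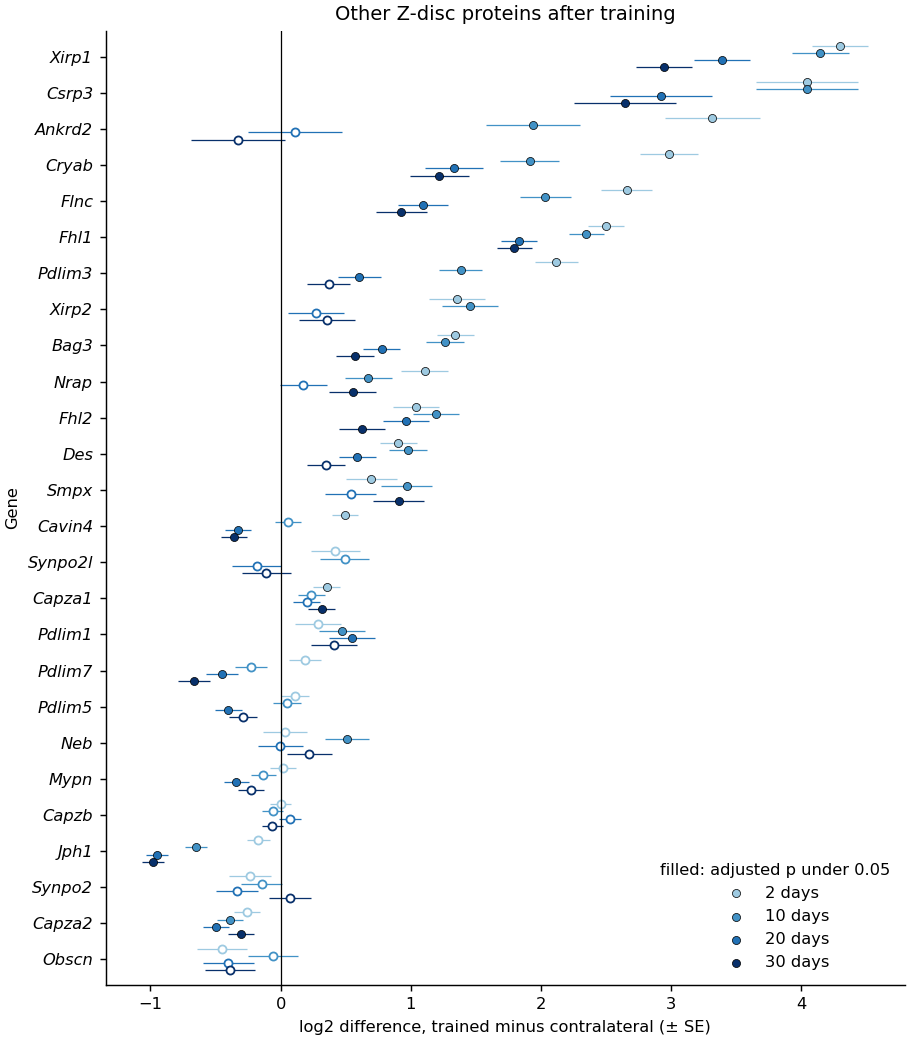
Log2 difference between trained and contralateral muscle (horizontal axis, ± SE) of the 26 tested genes of other Z-disc proteins (vertical axis), with 1 colour for each training duration; filled points have an adjusted p under 0.05. Xirp1 at 4.30 and Csrp3 at 4.04 have the largest differences after 2 days, and Ankrd2 lies at -0.32 at 30 days.

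Because myozenins bind calcineurin, the calcium-activated phosphatase that acts on NFAT factors, 13 genes of that system were read from the same fit, of which 11 were tested. At 2, 10, 20 and 30 days, 1, 1, 1 and 2 were called higher and 5, 4, 4 and 2 lower, beside 11.1% to 15.6% higher and 9.46% to 13.5% lower of all genes at these times. With the animal as a replicate block the higher counts were 1, 1, 1 and 1 and the lower counts 3, 3, 1 and 1. The list's median was -0.15, -0.14, -0.20 and -0.09, and -0.09, -0.17, -0.09 and -0.18 in the blocked fit. On the values as deposited, where 12 were tested, the median was -0.03, 0.07, -0.08 and -0.27, with 2, 2, 1 and 1 genes called higher and 4, 2, 1 and 3 lower. Rcan1, an inhibitor of calcineurin that calcineurin signalling itself induces, rose from 21.9 to 47.5 in contralateral muscle to 173 to 287 after 2 days. Its log2 difference was 2.86, 3.09, 2.01 and 1.77 (adjusted p = 3.9e-06 at 30 days). Its paralogue Rcan2 fell after 2 days (log2 -0.97, adjusted p = 1.7e-05), and its later differences of -0.32, -0.20 and -0.09 did not pass. Ppp3cb, a catalytic subunit of calcineurin, had log2 differences of -0.95, -0.75 and -0.71 at 2, 10 and 20 days (adjusted p = 1.2e-06, 2.4e-05 and 7.0e-05). At 30 days it was -0.38 (adjusted p = 0.0187), with 0.0914 without trained replicate 1 and 0.126 without replicate 2 (range over 32 alternatives 0.00238 to 0.126). Nfatc3 had a log2 difference of -0.61 at 2 days (adjusted p = 9.0e-04), and in the blocked fit -0.35 (adjusted p = 0.0838, the range over 32 alternatives being 4.1e-04 to 0.0838).

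Since Actn3, Myoz1 and Myoz3 are fast-fibre genes, 11 other genes typical of fast fibres were read beside them, and 10 were tested. Of these, 0, 1, 0 and 0 were higher and 4, 5, 6 and 6 lower at 2, 10, 20 and 30 days (all genes: 11.1% to 15.6% higher and 9.46% to 13.5% lower). With the values as deposited the higher counts were 0, 2, 0 and 0 and the lower counts 3, 3, 7 and 9. Of the 11262 genes tested as deposited, 731, 682, 745 and 2590 were called lower. In the blocked fit none was higher, and 3, 4, 5 and 5 were lower. The list's median was -0.27, -0.28, -0.49 and -0.43, and as deposited -0.15, -0.16, -0.49 and -0.66. Pvalb, the calcium buffer of the fastest fibres, lay between 1914 and 2947 in contralateral muscle, and between 157 and 453 after 20 days. It had log2 differences of -2.27, -3.23 and -3.16 at 10, 20 and 30 days (adjusted p = 9.2e-07, 7.1e-09 and 1.6e-08). At 2 days it was -0.98 (adjusted p = 0.00858), with 0.0624 without trained replicate 2 and 0.0682 without replicate 3 (range over 32 alternatives 0.00165 to 0.0682). Casq1, the calcium-binding protein of the fast sarcoplasmic reticulum, fell at 20 days (log2 -0.65, adjusted p = 3.0e-04) and 30 days (-0.67, 3.0e-04). Mybpc2, the fast myosin-binding protein C, was called lower at each time point. Its log2 difference was -0.59, -0.60, -0.58 and -0.75 (adjusted p = 0.00337, 0.00263, 0.00489 and 6.3e-04). Tpm1, which encodes fast alpha-tropomyosin, was also called lower at each. Its log2 difference was -0.28, -0.39, -0.54 and -0.58 (adjusted p = 0.0437, 0.00626, 4.7e-04 and 3.0e-04). Of the 32 alternatives, 31 kept the 2-day call of Mybpc2 and 20 that of Tpm1. The 20-day call of Mybpc2 was kept in 31 and the 10-day call of Tpm1 in 30. The symbol Myh4 gathers 6 transcripts that span neighbouring myosin genes, so it is counted in the list but not read as 1 gene.

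All 10 slow-fibre genes were tested, and 1 was higher and 5 were lower after 2 days, 1 and 1 after 10 days, and 0 in either direction after 20 and after 30 days by limma (all genes: 11.1% to 15.6% higher and 9.46% to 13.5% lower). The list's median was -0.61, -0.26, -0.04 and -0.26. With the animal as a replicate block, 0 of the lower calls at 2 days and 0 at 10 days passed, while at 20 days 1 gene was called lower and the median was -0.36. On the values as deposited, 1, 2, 0 and 0 genes were higher and 3, 1, 0 and 2 lower. The deposited median was -0.50, -0.14, -0.05 and -0.48. Casq2, the slow-fibre and cardiac calsequestrin, was the gene called higher, with log2 differences of 1.29 at 2 days (adjusted p = 7.1e-04) and 1.40 at 10 days (adjusted p = 2.7e-04). Myl3, the slow ventricular myosin light chain, fell at 10 days (log2 -0.92, adjusted p = 0.00510), with -0.60 in the blocked fit (adjusted p = 0.0796) and a range of adjusted p over 32 alternatives from 1.3e-04 to 0.183. At 2 days it was -0.65 (adjusted p = 0.0440), called in 19 of the 32 alternatives. Atp2a2, the calcium pump of slow and cardiac sarcoplasmic reticulum, had a 2-day log2 difference of -0.80 (adjusted p = 0.0163, over the alternatives 0.00547 to 0.284). In the blocked fit it was -0.45 (adjusted p = 0.0893). Myh7, the slow myosin heavy chain, had log2 differences of -0.90, -0.47, -0.24 and -0.56 at 2, 10, 20 and 30 days. Its adjusted p was 0.0111, 0.180, 0.571 and 0.130, and the 2-day value ran from 0.00525 to 0.204 over 32 alternatives. The 20-day value was -0.67 in the blocked fit (adjusted p = 0.0434), and the 30-day value -0.78 as deposited (adjusted p = 0.0281).

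Among 10 myogenic and Mef2 factors, all tested, 4, 1, 0 and 0 were higher and 2, 2, 2 and 1 lower at 2, 10, 20 and 30 days, beside 11.1% to 15.6% higher and 9.46% to 13.5% lower of all genes. As deposited, 4, 2, 0 and 0 were higher and 1, 1, 1 and 3 lower, and in the blocked fit 3, 1, 0 and 0 were higher and 1, 1, 3 and 2 lower. The list's median was -0.02, -0.11, -0.27 and -0.26, as deposited 0.08, 0.00, -0.27 and -0.47 and in the blocked fit 0.02, -0.07, -0.28 and -0.28. Mef2c rose at 10 days (log2 0.64, adjusted p = 2.0e-05), and was 0.06 at 20 days. Myogenin (Myog), a differentiation factor, rose at 2 days (log2 1.41, adjusted p = 5.2e-04), as did Myf6 (log2 1.17, adjusted p = 0.00103).

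Markers of macrophages and fibroblasts moved with training. Macrophage markers, all 9 with values, had a summed value of 9.66 to 28.3 in contralateral muscle (median 18.6). After training the sum was 31.1, 71.5 and 50.9 at 2 days, 77.0, 61.9 and 33.0 at 10 days, 48.4, 48.3 and 54.9 at 20 days and 40.8, 58.3 and 51.8 at 30 days. Each trained muscle was above the contralateral range, 7, 8, 9 and 9 of 9 genes were called higher, C1qc and C1qa were the most abundant, and no gene was at 0 in every library of a group. Of all genes tested, 15.4%, 15.6%, 11.7% and 11.1% were called higher at these times. Fibroblast markers, 6 of 7 with values, summed to 75.1 to 254 in contralateral muscle (median 174). After training the sum was 302, 497 and 411 at 2 days, 983, 595 and 518 at 10 days, 599, 563 and 615 at 20 days and 356, 406 and 416 at 30 days, again above the contralateral range in every trained muscle. Dcn was the most abundant in contralateral and Col3a1 in trained muscle, with 4, 5, 5 and 5 of 6 called higher. Both sums were small beside that of the 7 skeletal muscle markers, which was 71224, 68929 and 70246 after 2 days, 75789, 95959 and 73957 after 10 days, 92512, 87095 and 58420.2 after 20 days and 72746, 78208 and 71047 after 30 days. Of these 7 genes 0, 3, 1 and 1 were called higher and 4, 3, 3 and 2 lower (all genes lower: 13.5%, 13.3%, 9.64% and 9.46%). In the blocked fit 0, 1, 1 and 1 were higher and 3, 3, 1 and 1 lower. That fit gave 9, 7, 9 and 9 of 9 macrophage and 5, 5, 4 and 4 of 6 fibroblast markers as higher. The sums of the macrophage and fibroblast markers, like Actn2, were above the contralateral range in every trained muscle, while Actn3 was below it. The part of these marker sums in the results for the Z-disc genes was not tested.

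The summed endothelial markers (5 of 6 with values, Cdh5 the most abundant) were 33.4 to 49.0 in contralateral muscle and 35.1 to 77.3 in the 12 trained muscles, and the smooth muscle and pericyte markers (6 of 6, Rgs5 or Tagln the most abundant) at 69.7 to 117 and 87.4 to 147. Satellite cell markers (4 of 4, Chodl) summed to 3.72 to 6.07 and 2.63 to 7.07, and adipocyte markers (4 of 4, Cfd) to 4.34 to 14.7 and 11.2 to 20.9. No gene of these lists was at 0 in all libraries of a group. Of the tested endothelial markers 0, 2, 3 and 2 of 5 were called higher and 1, 0, 0 and 0 lower at the 4 time points, and of the smooth muscle and pericyte markers 3, 2, 1 and 1 of 6 higher and 1, 0, 0 and 0 lower. For satellite cell markers the counts were 1, 1, 0 and 0 of 2 higher and 1, 0, 0 and 0 lower. For adipocyte markers 1 of 3 was higher at 10, 20 and 30 days and 0 at 2 days. In the blocked fit the higher counts at the 4 time points were 0, 2, 2 and 1 for endothelial, 0, 2, 1 and 2 for smooth muscle and pericyte, 0, 0, 0 and 1 for satellite cell and 1, 0, 1 and 1 for adipocyte markers, and the lower calls at 2 days were 0, 0, 1 and 0. As deposited the higher counts were 0, 2, 2 and 0 for endothelial, 3, 3, 1 and 0 for smooth muscle and pericyte, 1, 1, 0 and 0 for satellite cell and 0, 1, 1 and 0 for the 2 adipocyte markers tested, and the lower calls at 2 days were 0, 0, 1 and 0. Over these times 11.1% to 15.6% of all genes were called higher and 9.46% to 13.5% lower. The median log2 difference of the smooth muscle and pericyte markers at 2 days was 0.50, and 0.15 in the blocked fit.

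For each gene, the 3 genes with the most similar values were named by Pearson r of log2 values over the 24 libraries, among 3841 genes with a mean of at least 10. The libraries fall into groups and into pairs from 1 animal, so these coefficients describe shared patterns across trained and contralateral muscle and carry no p. Actn3 was most like Pvalb (0.97), Mylk2 (0.96) and Msrb3 (0.96); Pvalb is the calcium buffer already described and Mylk2 the skeletal myosin light chain kinase. Actn2 was most like Dnaja4 (0.94), Habp4 (0.94) and Gpd1l (0.93), Dnaja4 being a chaperone of the DnaJ family. Myoz2 was most like Myl2 (0.88), Tnnc1 (0.79) and Decr1 (0.77), the first a slow myosin light chain and the second the slow and cardiac troponin C. Myoz1 was most like Park7 (0.92), AABR07005775.1 (0.91) and Snurf (0.91). Myoz3 was most like Iqsec1 (0.88), Eif4ebp2 (0.87) and Ube3b (0.84). Ldb3 was most like Timm10 (0.82), Vgll2 (0.81) and Mafg (0.78), and Myot most like Usp13 (0.76), Dym (0.75) and Kpna4 (0.74). Among the 7 genes themselves, the pairs with a coefficient above 0.5 in size were Actn2 and Actn3 (-0.81), Actn3 and Myoz1 (0.61), Actn2 and Myoz1 (-0.59), Myoz1 and Myoz3 (0.55), and Actn3 and Myoz3 (0.51).

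RefSeq promoters of the GRCr8 assembly, each 300 bases running from upstream of the gene start to shortly after it, were matched by symbol for 6 of the 8 genes; Tcap and Myot had no entry. Both strands were searched for the MEF2 site, the CArG box bound by serum response factor, and the E-box CANNTG bound by myogenic factors, and, after the sequences had been seen, for the E-box CACGTG, which is a special case of CANNTG. These are held by 3.29%, 1.64%, 72.1% and 6.42% of the 33469 promoters of that length, and a match describes letters and not a bound site. The MEF2 site was found in Myoz1 (CTATTAATAA, from -83 relative to the start) and Myoz2 (CTATATATAG, from -53), and the CArG box in Ldb3 (CCATTTATGG, from -52). The E-box CANNTG occurred 4 times in Myoz3, 2 times in Myoz2 and Actn2 and 1 time in Myoz1, and the window of Actn3 held none of the 4 patterns. Both E-boxes of Actn2 were CACGTG, from -117 and -63. The annotated strand of Actn2 differs between the assemblies. The promoters of the alpha-actinins, which moved in opposite directions, and of Myoz1 are printed 5′ to 3′ on the gene's strand, with matches in capitals: Actn2 at chr17:62834805-62835104 (plus strand), Actn3 at chr1:211604352-211604651 (minus strand) and Myoz1 at chr15:3693363-3693662 (plus strand).
Actn2: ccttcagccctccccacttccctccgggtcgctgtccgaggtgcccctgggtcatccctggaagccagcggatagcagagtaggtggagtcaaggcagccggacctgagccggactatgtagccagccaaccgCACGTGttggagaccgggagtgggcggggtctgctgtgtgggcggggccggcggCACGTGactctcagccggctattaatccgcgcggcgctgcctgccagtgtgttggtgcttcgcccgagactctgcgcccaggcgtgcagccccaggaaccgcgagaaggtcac
Actn3: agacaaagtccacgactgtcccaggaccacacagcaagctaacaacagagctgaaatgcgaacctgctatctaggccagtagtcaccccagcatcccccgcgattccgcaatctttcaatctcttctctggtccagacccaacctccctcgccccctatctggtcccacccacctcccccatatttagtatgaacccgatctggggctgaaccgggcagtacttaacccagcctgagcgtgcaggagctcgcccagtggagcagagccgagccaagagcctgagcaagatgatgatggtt
Myoz1: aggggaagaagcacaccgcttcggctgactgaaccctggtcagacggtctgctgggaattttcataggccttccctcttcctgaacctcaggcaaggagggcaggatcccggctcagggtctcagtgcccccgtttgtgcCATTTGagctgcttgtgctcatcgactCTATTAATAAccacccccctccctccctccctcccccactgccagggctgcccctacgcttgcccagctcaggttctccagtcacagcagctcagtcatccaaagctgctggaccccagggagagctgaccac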

How the data were processed

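RNA was measured by poly-A RNA-seq in 24 tibialis anterior muscles of 12 rats. The authors aligned the reads with STAR to the rn6 assembly in Partek Flow, and the deposited values, for which their methods name median-of-ratios normalisation, are read as TPM, since each library had the same total and values followed transcript length. Each library was divided by a median-of-ratios factor from 16230 transcripts (factors 0.778 to 1.14), and the 20027 transcripts were summed per gene symbol. Genes and transcripts were kept if 3 or more libraries had a value of 1 or more (11196 genes, 13452 transcripts). Trained groups were compared with the 12 contralateral muscles, and with each other, by limma 3.58.1 in R 4.3.3 on log2(value + 1) with 5 groups, Benjamini-Hochberg adjustment and a threshold of 0.05. Python 3.11.15, numpy 2.4.6, pandas 2.3.3 and matplotlib 3.10.9 were used for the rest, and the fit was tested on simulated data. With 3 trained against 12 control libraries, log2 differences of 0.5, 1 and 2 were recovered in 53.9%, 93.6% and 99.7% of changed genes. Of the calls, 5.68% were false. Smaller differences were not simulated. The simulated libraries were independent, without pairs from 1 animal, and far fewer genes changed than were called here.

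The alternatives were the values as deposited, a pseudocount of 0.1, no filter, a mean of at least 10, the highest transcript per gene, an intensity trend, time-matched controls, the animal as a replicate block, a threshold of 0.01, and each library left out. Those for transcripts, for genes of other lists and for the alpha-actinin share were chosen after seeing the data. The sample descriptions give the animal number and side of each muscle, and the pairing by replicate number follows these animal numbers. As a further check, the median correlation of residual values was 0.174 between the muscles of 1 animal (over 0.1 in 8 of 12) and -0.01 between animals. No pair of the 276 pairs of libraries was identical.

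The genes and lists were chosen with earlier results of these data known. The text names all 8 genes, their transcripts with a mean of at least 10 (and Ldb3-205, below that, and Actn1, added after their values were seen), up to 4 genes per list from those with the largest differences past the threshold and a mean of at least 10 in contralateral or that trained muscle, and the 3 most similar genes.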

Additional observations from a re-analysis of the deposited data

Results flagged for a closer look

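Of 28 genes followed across the trained groups, the 7 Z-disc genes and 21 from the other lists, 13 differed between trained groups by limma, 12 of them between 2 and 30 days and 1 between 10 and 20 days. Of all genes tested 15.0% and 0.170% differed in these comparisons, and the 21 genes had been chosen for their large differences from contralateral muscle at single time points. The blocked values given here are changes between time points in the difference from the own contralateral muscle. They are another contrast, which also holds any change between the contralateral muscles. Actn3 was lower after 30 than after 2 days, by a log2 difference of -1.44 (adjusted p = 3.1e-04) and, with the animal as a replicate block, -1.43 (adjusted p = 0.0199). The calcium buffer Pvalb moved the same way, by -2.18 (adjusted p = 2.1e-04) and, with the animal as a replicate block, -1.77 (adjusted p = 0.0524).

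Several genes that were higher in trained muscle after 2 days were less so after 30 days. The log2 difference between 30 and 2 days was -3.64 (adjusted p = 2.7e-05) and, with the animal as a replicate block, -3.03 (adjusted p = 0.0199) for Ankrd2. For Cryab it was -1.76 (adjusted p = 2.5e-04) and, with the animal as a replicate block, -1.82 (adjusted p = 0.0124). For Xirp1 it was -1.35 (adjusted p = 0.00170) and, with the animal as a replicate block, -1.04 (adjusted p = 0.0972). The myogenic factor Myog gave -1.74 (adjusted p = 0.00182) and, with the animal as a replicate block, -1.87 (adjusted p = 0.0485). Its relative Myf6 gave -1.17 (adjusted p = 0.0138) and, with the animal as a replicate block, -0.83 (adjusted p = 0.0508). The calcineurin inhibitor Rcan1 gave -1.09 (adjusted p = 0.0104) and, with the animal as a replicate block, -0.46 (adjusted p = 0.421), and the calsequestrin Casq2 -1.19 (adjusted p = 0.0176) and, with the animal as a replicate block, -1.38 (adjusted p = 0.110).

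Ppp3cb, Rcan2 and Nfatc3, which were called lower after 2 days, had higher values after 30 days than after 2, though none of the 3 passed with the animal as a replicate block: the log2 difference was 0.56 (adjusted p = 0.0104) and, with the animal as a replicate block, 0.41 (adjusted p = 0.280) for Ppp3cb. For Rcan2 it was 0.88 (adjusted p = 0.00190) and, with the animal as a replicate block, 0.81 (adjusted p = 0.105). For Nfatc3 it was 0.51 (adjusted p = 0.0375) and, with the animal as a replicate block, 0.03 (adjusted p = 0.948). Mef2c differed between 20 and 10 days, by -0.58 (adjusted p = 0.0463) and, with the animal as a replicate block, -0.76 (adjusted p = 0.291). With the animal as a replicate block, Actn3, Ankrd2, Cryab and Myog passed the threshold and the other 9 did not. All 13 blocked values had the same sign as the differences between trained muscles, that of Nfatc3 being close to 0. Since the contrast differs, they do not show whether the differences between trained muscles hold in a refit.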

How the results depend on the processing

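The log2 differences of the 7 genes from contralateral muscle, 28 values over 4 time points, kept their call in all 28 with a pseudocount of 0.1, without a filter and with the highest transcript per gene. With the values as deposited 24 kept it, 1 was lost and 3 were gained. Other counts were 25 kept and 3 gained among genes with a mean of at least 10, 27 and 1 with an intensity trend, 25 kept, 2 lost and 1 gained with time-matched controls, and 26 kept and 2 lost at a threshold of 0.01. With 1 library left out, 650 of 672 values kept their call, 8 lost it and 14 gained it. No called value changed direction. Between trained groups, 27 of 28 values kept their call as deposited and 167 of 168 with 1 library left out.

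With the animal as a replicate block, 25 of the 28 values kept their call and 3 were lost, those of Myoz1 at 2 and 10 days and of Myot at 20 days. The blocked fit also sets trained muscle against the same rats' contralateral muscles, so both the block and the controls differ from the main fit. Over all genes it called 1377 genes at 30 days, against 2304 in the main fit. With time-matched controls and no block, 649 genes were called higher and 472 lower at 30 days, against 807 and 570 with the block. Between time points, the blocked fit tests the change in the difference from the own contralateral muscle. That is another contrast from trained against trained muscle, so the counts are not of the same form. By limma, it gave 7 genes from 2 to 10 days, 1 from 10 to 20, 0 from 20 to 30 and 314 from 2 to 30 days. Trained against trained muscle gave 216, 19, 4 and 1677 in these comparisons. Called transcripts of trained against contralateral muscle numbered 1876 at 10 days in the blocked fit (main fit: 3063) and 1041 at 30 days (2156).

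The numbers of called genes at 2, 10, 20 and 30 days were 3235, 3240, 2393 and 2304. Among genes with a mean of at least 10, where fewer genes are tested, they were 1654, 1420, 1064 and 1155, and at a threshold of 0.01 1958, 2050, 1420 and 1296. With time-matched controls, where each group of controls is smaller, they were 2007, 1589 and 1121 at 10, 20 and 30 days. With the values as deposited, 43 genes were called from 10 to 20 days, 9 from 20 to 30 days and 3294 from 2 to 30 days; the cause was not tested.

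With 1 library left out, 1513 to 3505 genes were called at 2 days, 2147 to 3323 at 10 days, 1734 to 2500 at 20 days and 1472 to 2440 at 30 days. The libraries that moved these counts most were trained 2-day replicate 2 (1513 without it), trained 10-day replicate 1 (2147) and trained 30-day replicates 2 and 3 (1472 and 1492). Between trained groups the counts were 66 to 488 between 2 and 10 days, lowest without trained 10-day replicate 1 and highest without trained 2-day replicate 1. Trained 2-day replicates 2 and 3 (88 and 77) and 10-day replicate 3 (114) also moved that count. They were 2 to 95 between 10 and 20 days, highest without trained 10-day replicate 3, with 7 and 4 without its replicates 1 and 2 and 2 and 3 without trained 20-day replicates 1 and 3. Between 20 and 30 days they were 0 to 9, with 0 without trained 20-day replicate 2 or trained 30-day replicate 2 or 3, 2 without trained 30-day replicate 1 and the highest without trained 20-day replicate 3. Between 2 and 30 days they were 724 to 2134, lowest without trained 2-day replicate 2, with 1081 without its replicate 3 and 1100 without trained 30-day replicate 3. Among the contralateral groups the F test gave 0 to 12 genes, against 7 with all libraries. The ends were reached without contralateral 2-day replicates 3 and 2, and the count was 1 without replicate 1, 3 without 10-day replicate 2 and 4 without 30-day replicate 1. The mean share of Actn3 in the sum of Actn2 and Actn3 ranged over 64.2% to 70.7% at 2 days, 49.5% to 53.3% at 10 days, 49.0% to 52.1% at 20 days and 37.1% to 49.5% at 30 days.

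Each trained group had 3 muscles, and the values carry no sequencing depth. With a replicate left out, a group keeps 2 muscles and limma takes their spread together with that of the other groups.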

Other observations

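Tcap had no row, and in the order of genes of the GRCr8 annotation it lies between Stard3 and Pnmt. In the rn6 positions of the table, 2 genes without a name lay between Stard3 and Pnmt on the plus strand of chromosome 10. AABR07030443.1 (chr10:86336647-86337666) had values of 0 to 0.447 in contralateral muscle. AABR07030443.2 (chr10:86337728-86338412) had values of 353 to 912 there, with a median of 481. In trained muscle its values were 557 to 566 after 2 days, 407 to 811 after 10 days, 334 to 641 after 20 days and 207 to 367 after 30 days. The log2 difference was 0.12, 0.08, -0.18 and -0.86, the last with an adjusted p of 0.00856, at the 4 time points. With the animal as a replicate block the values were -0.38, 0.26, -0.15 and -0.57 (adjusted p = 0.0998 at 30 days), with the opposite direction at 2 days. The files do not name these genes, and they were looked at after the values of the other genes were seen.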
